A study of Mus musculus with 4 samples.

Results

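The damage checkpoint and end-joining genes are 30 genes whose products sense broken or stalled DNA, signal its presence and rejoin broken ends. They were taken by symbol from the deposited expression table of mouse epidermis, in which all 30 stood on 1 row each among 23847 rows with 23359 symbols. They were placed by role into 5 groups: ATM and ATR signalling (8 genes), mediators that protect the replication fork (3), the 9-1-1 clamp with its loader (4), ubiquitin signalling on chromatin (6) and end joining (9). RNA was sequenced from whole back-skin epidermis at postnatal day 20, from 2 wild-type (WT, Irx5+/+) and 2 knockout (Irx5KO, Irx5-/-) mice. The product of Irx5 is an Iroquois-class homeobox regulator of transcription, and the series' title links it to DNA damage repair and hair follicle stem cells, so the comparison asks whether these genes differ between the libraries labelled Irx5KO and WT. The skin was treated with trypsin and the epidermis dissociated before RNA extraction, and the libraries were sequenced single-end. The labels describe neither the Irx5 allele, the strain, the sex nor the litters. The p-values below set each difference against the spread between these 2 libraries a genotype, drawn towards the spread of other rows at a similar level.

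Cells meet damaged DNA with a pair of related kinases. ATM answers double-strand breaks and passes the signal to the kinase Chk2, whereas ATR, recruited through its partner Atrip to single-stranded DNA, is switched on by Topbp1 or Etaa1 and passes the signal to Chk1. At breaks, phosphorylated histone H2AX binds Mdc1, which draws in the ubiquitin ligases Rnf8 and Rnf168 and, through them, 53BP1. In end joining, the Ku proteins hold the ends and DNA ligase IV seals them. In epidermis, keratinocytes meet ultraviolet light, and hair follicle stem cells are known to repair breaks largely by end joining while quiescent.

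Levels are in FPKM, which scales read fragments to transcript length and to the mapped total, and each is given with its SD over n = 2 libraries where a mean is shown. Steps among the lowest values placed the depth at about 54200000 and 60100000 fragments for WT replicates 1 and 2 and 53800000 and 52200000 fragments for Irx5KO replicates 1 and 2. At that depth the lowest value among the members, Clspn in WT replicate 1, rested on about 48 fragments, and the highest estimate was about 5140 fragments. The targeted gene, Irx5, was at 17.4 and 16.4 FPKM in the WT mice and at 10.01 and 10.1 FPKM in the Irx5KO mice. It fell (difference -0.70, adjusted p = 0.0117), with the same direction under all 15 alternatives and the call ended with no filter (adjusted p = 0.0715), as TPM (0.0577), or after dropping Irx5KO replicate 1 (0.103) or 2 (0.0899). In Irx5KO 59.5% of the WT level remained, so its transcript was not absent as the label knockout could imply. Whether the remaining reads lie outside a deleted part could not be checked, and the groups are called by their labels throughout. The keratinocyte marker Krt15 had a mean of 4060 ± 877 FPKM in WT and 5184 ± 569 FPKM in Irx5KO. Of 10 keratinocyte markers 1 was higher and 1 lower. Of 7 markers of the outer root sheath and bulge 3 were higher and 2 lower. Krt17, the most abundant of these 7, fell from 2454 ± 190 to 1103 ± 331 FPKM (adjusted p = 0.0201). Summed over the 7, Irx5KO libraries reached 1685 to 2278 FPKM, below the 3219 to 3594 FPKM of WT. All 6 endothelial markers were below 1 FPKM in every library. The summed level of 8 Langerhans cell and macrophage markers was 772 to 1195 FPKM in WT and 367 to 488 FPKM in Irx5KO, and 3 of the 7 tested were lower. Cd74, the most abundant of them, went from 427 ± 130 to 206 ± 40.6 FPKM (adjusted p = 0.0186). The most abundant melanocyte marker, Dct, went from 11.9 ± 6.40 to 5.10 ± 1.14 FPKM (adjusted p = 0.0350). Those of T cells, fibroblasts and endothelium were Cd3g (52.8 ± 31.8 to 51.6 ± 3.66 FPKM), Fbln1 (1.81 ± 0.374 to 2.86 ± 0.516 FPKM) and Pecam1 (0.517 ± 0.0855 to 0.639 ± 0.485 FPKM). Of 21 immediate-early and heat shock genes, which dissociation of tissue is known to induce, 18 were lower and none was higher in Irx5KO, with a sum of 12498 to 13220 FPKM in WT and 2865 to 4887 FPKM in Irx5KO. The 3 of smallest p were Nr4a3 (39.9 ± 16.1 to 0.184 ± 0.0593 FPKM), Nr4a2 (10.6 ± 1.55 to 0.508 ± 0.222 FPKM) and Myc (346 ± 8.25 to 42.8 ± 9.55 FPKM). Xist was at 36.6 and 33.9 FPKM in the WT mice and 0.0606 and 0.0459 FPKM in the Irx5KO mice, and the Y-linked Eif2s3y at 0.0350 and 0.0422 FPKM in the WT mice and 70.9 and 75.7 FPKM in the Irx5KO mice. Other Y-linked genes were Ddx3y (0.0171 ± 0.0126 to 18.4 ± 1.98 FPKM), Uty (0.00889 ± 0.00794 to 7.77 ± 0.0545 FPKM) and Kdm5d (0 ± 0 to 7.70 ± 1.93 FPKM). The sexes of the mice thus differed between the genotypes. Of the 30 members 0 lie on the X or Y chromosome, and sex and genotype cannot be told apart for any of them. The part of these marker, dissociation and sex differences in the results below was not tested. In whole tissue, fewer cells of a type and less RNA per cell cannot be told apart.

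Most of the members were expressed at low to moderate levels, and those that passed the test were higher in the libraries labelled Irx5KO. The WT means ran from 0.222 FPKM for Clspn to 15.1 FPKM for Wee1. Rows with at least 1 FPKM in at least 2 libraries were tested with limma on log2(FPKM + 1), and 27 members passed this filter, while Chek1, Clspn and Timeless did not. Of the 27, 10 were higher in Irx5KO at an adjusted p under 0.05, none was lower, also at an unadjusted p under 0.05, and 17 did not pass. Among all 11643 rows tested 26.9% were higher, 9.22% lower and 36.1% called in either direction, against 37.0%, none and 37.0% of the tested members. The median difference of the tested members was 0.36 on the log2(FPKM + 1) scale and that of all rows was 0.26. Chek2 and Lig4 were below 1 FPKM in both WT libraries and entered the test through the Irx5KO libraries alone, and Etaa1 and Hus1 reached 1 FPKM in only 1 WT library, so the entry of these 4 into the test depended on their level in Irx5KO. Of the 23 members at 1 FPKM or more in both WT libraries, 6 were higher, and the share of all rows chosen in this way was not counted. Both Irx5KO libraries lay above both WT libraries for 17 of the 27, or 63.0%, against 54.3% of all rows tested, and both WT libraries lay above both Irx5KO libraries for 1, Wee1, against 18.0%. Among all 30 members, tested or not, the Irx5KO libraries lay above for 18. The share over all rows of the table was 35.0%, but it includes the rows that failed the filter. As 27 of the 30 members passed the filter, the 54.3% of rows tested is the closer comparison.

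**Figure D1:**
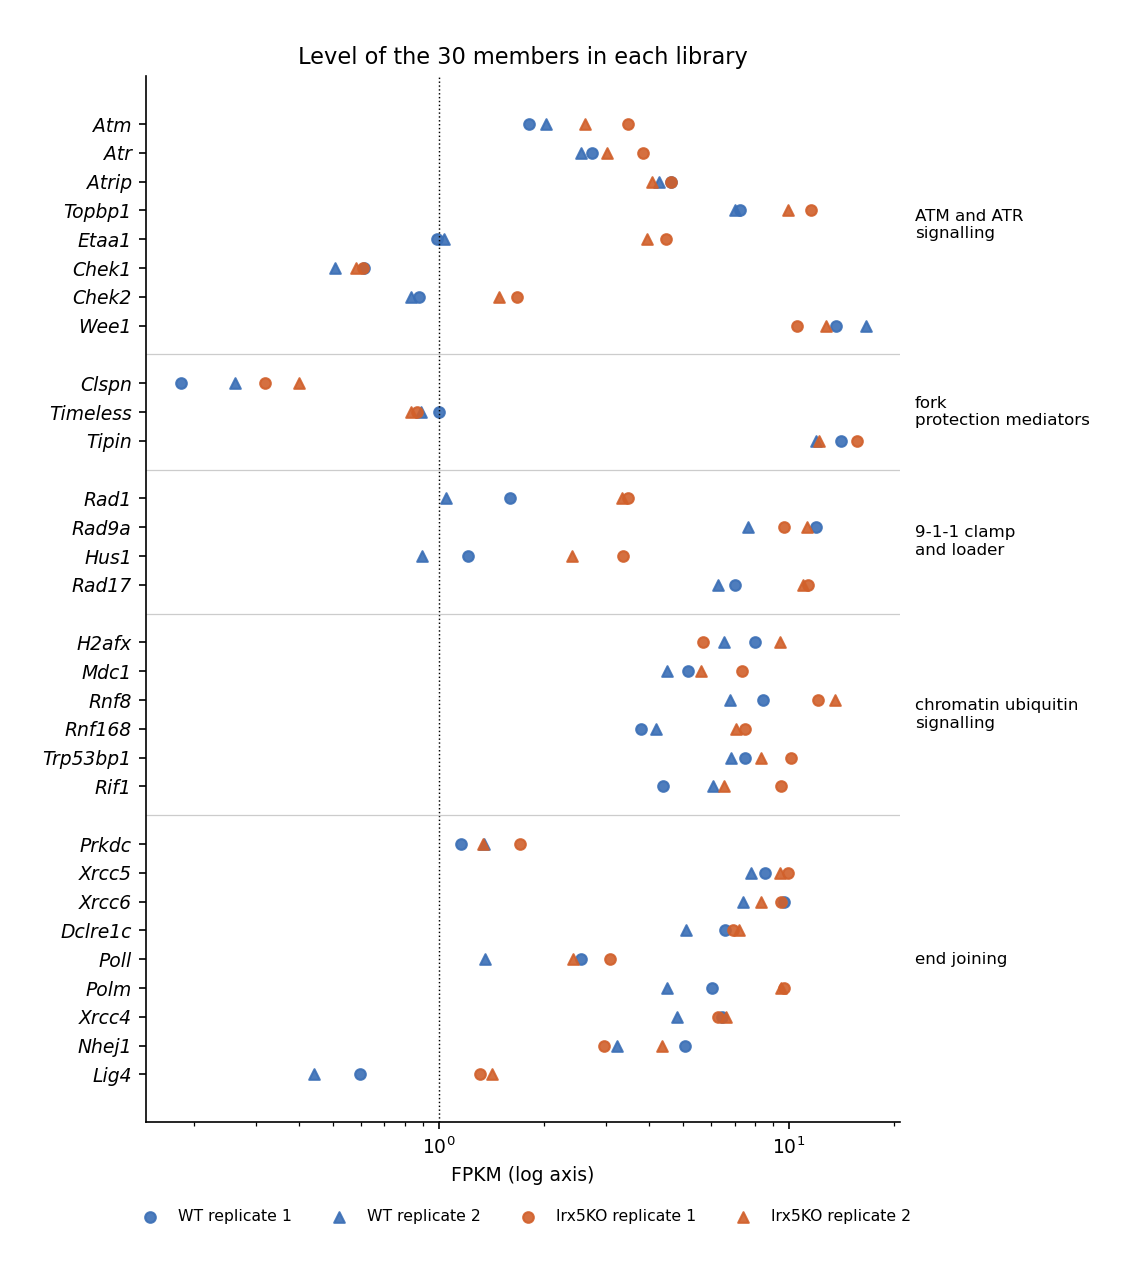
FPKM of the 30 members in each library on a log axis, with WT in blue, Irx5KO in orange, circles for replicate 1 and triangles for replicate 2; the dotted line marks 1 FPKM. The orange and blue points of Etaa1, Rad1, Hus1 and Lig4 stand well apart, whereas those of Rad9a, Atrip, Xrcc6 and H2afx are mixed.

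**Figure D2:**
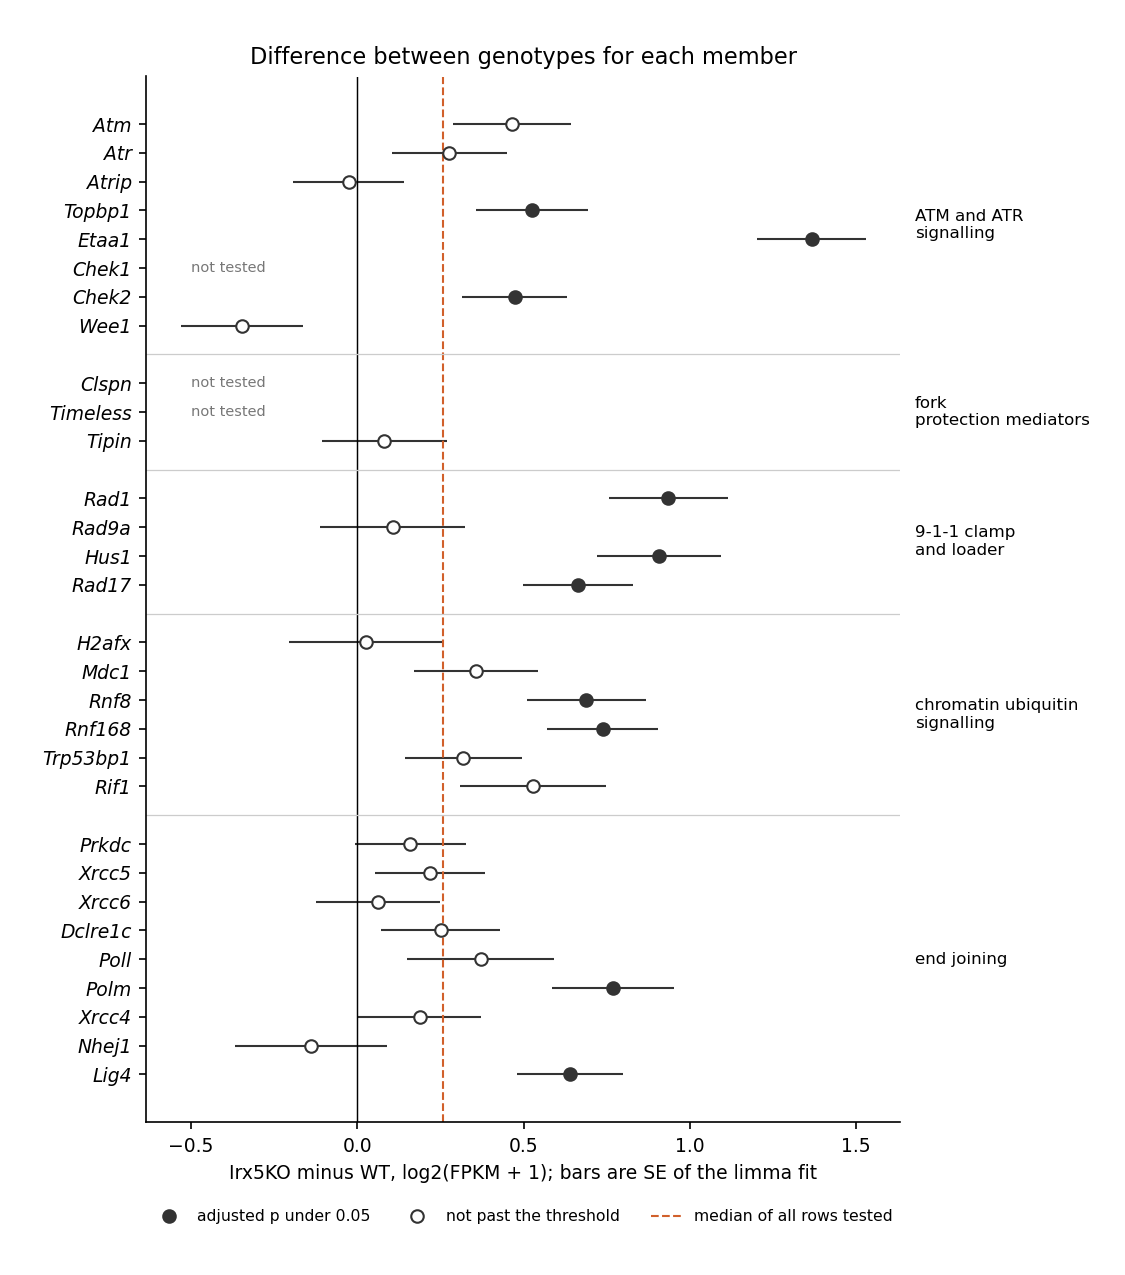
Difference between the genotypes (Irx5KO minus WT, log2(FPKM + 1)) for each tested member with the SE of the limma fit; filled points passed the adjusted p of 0.05 and the dashed line is the median of all rows tested, 0.26. The 10 filled points all lie to the right of that line, led by Etaa1 at 1.37.

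How firmly the increases held depended on the scaling of the libraries. The 4 scalings below and the fits without 1 library kept the rows that the filter chose on the deposited values. They therefore did not vary the entry of Etaa1, Hus1, Chek2 and Lig4 into the test, which depended on the level in Irx5KO. Scaled by the median of ratios, which brought the median difference of all rows to -0.00, 4 members were higher (Etaa1, Rad1, Hus1 and Lig4) and 1, Wee1, was lower, against 10.5% and 13.9% of all rows. Under quantile normalization the same 4 were higher and none was lower, against 13.0% and 11.3% of all rows. Rescaled to a fixed sum (TPM), which moved the median of all rows to 0.50, 15 were higher and none lower, against 47.9% and 7.52% of all rows. Without the 100 most abundant rows in the scaling, 12 were higher and none lower, against 41.2% and 8.13%. Etaa1, Rad1, Hus1 and Lig4 were therefore the members that passed under all 4 of these scalings, and of them Etaa1, Rad1 and Hus1 also passed when any 1 library was left out. The other 6 calls (Topbp1, Chek2, Rad17, Rnf8, Rnf168 and Polm) did not pass under the median of ratios or under quantile normalization, with adjusted p-values from 0.0606 for Polm to 0.287 for Topbp1. With no filter on low values limma called none of the 30 (adjusted p = 0.0745 for Etaa1) and, of all rows, 28 higher and 18 lower.

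**Figure D3:**
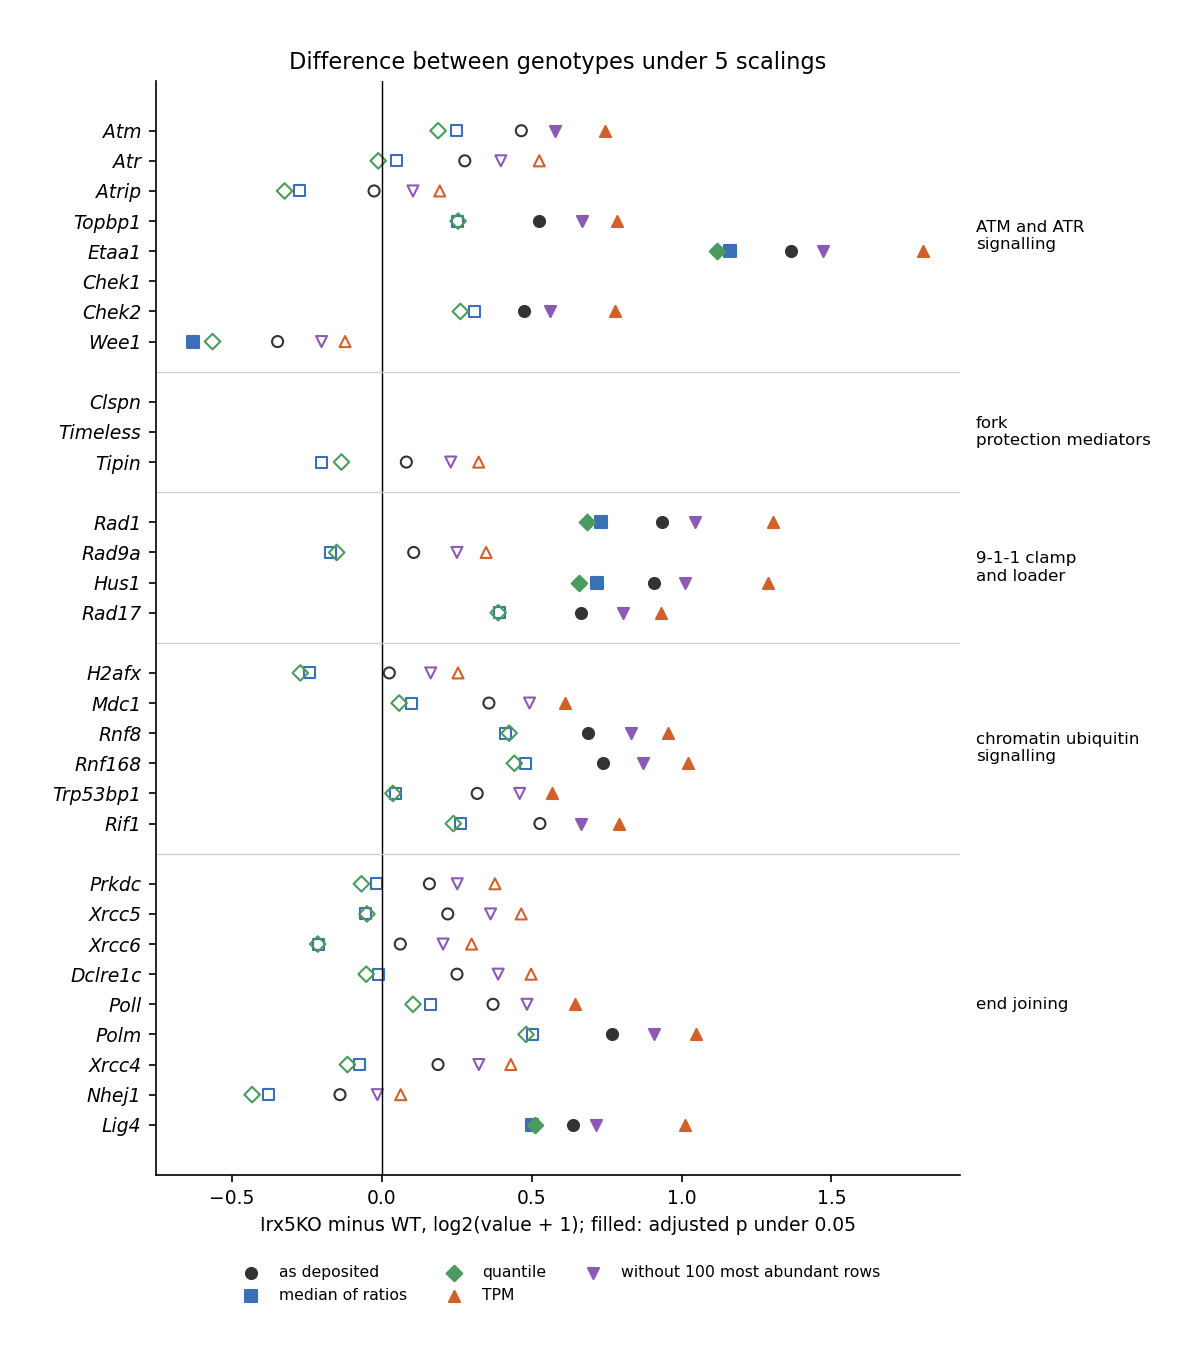
Difference between the genotypes for the 27 tested members under the deposited scale and 4 other scalings, with filled symbols where the adjusted p was under 0.05. Etaa1, Rad1, Hus1 and Lig4 are filled in every scaling, and the end-joining genes Prkdc, Xrcc4, Xrcc5, Xrcc6 and Dclre1c fall on both sides of 0.

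The promoters of these 4 genes are shown because their calls did not depend on the scaling. Each window runs from 250 bases before to 50 after an annotated start in RefSeq (GRCm38.p6, the assembly also called mm10), and capitals mark matches on either strand to 5 motifs: TTTCGCGC or TTTGGCGC for E2F, ACANNTGT for Iroquois proteins, the palindromic consensus of NRF1, CCGGAAGT for ETS factors and CCAAT for the CCAAT box. No matches overlapped in these windows.
Etaa1 (chr11:17953826-17954125, minus strand): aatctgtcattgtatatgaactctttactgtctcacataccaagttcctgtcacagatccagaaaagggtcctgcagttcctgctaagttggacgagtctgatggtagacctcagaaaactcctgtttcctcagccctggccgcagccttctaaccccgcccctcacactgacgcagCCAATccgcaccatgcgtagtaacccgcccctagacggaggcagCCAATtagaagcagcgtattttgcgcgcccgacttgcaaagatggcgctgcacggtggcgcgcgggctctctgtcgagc
Rad1 (chr15:10485768-10486067, plus strand): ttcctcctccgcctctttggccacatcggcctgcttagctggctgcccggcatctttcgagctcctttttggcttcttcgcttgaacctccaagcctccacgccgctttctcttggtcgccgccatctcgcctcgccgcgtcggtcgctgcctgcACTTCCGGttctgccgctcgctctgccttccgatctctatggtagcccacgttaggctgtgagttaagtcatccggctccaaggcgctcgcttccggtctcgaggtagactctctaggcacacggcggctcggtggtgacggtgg
Hus1 (chr11:9011142-9011441, minus strand): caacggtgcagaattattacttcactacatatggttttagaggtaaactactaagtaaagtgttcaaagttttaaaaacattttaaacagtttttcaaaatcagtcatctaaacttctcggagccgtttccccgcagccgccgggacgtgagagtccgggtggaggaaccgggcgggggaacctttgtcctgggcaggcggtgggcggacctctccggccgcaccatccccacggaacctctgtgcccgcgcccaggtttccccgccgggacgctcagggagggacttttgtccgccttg
Lig4 (chr8:9977631-9977930, minus strand): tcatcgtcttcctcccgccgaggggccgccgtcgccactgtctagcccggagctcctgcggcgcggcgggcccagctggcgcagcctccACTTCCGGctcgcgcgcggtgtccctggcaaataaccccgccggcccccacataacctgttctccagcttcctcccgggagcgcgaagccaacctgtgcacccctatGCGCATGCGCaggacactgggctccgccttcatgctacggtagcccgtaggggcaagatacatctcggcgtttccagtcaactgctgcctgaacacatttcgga
Etaa1 held CCAAT 73 and 29 bases upstream of its start. Rad1 held the ETS letters 95 bases upstream, and Lig4 held them 161 bases upstream with the NRF1 consensus 54 bases upstream. Hus1 held none of the 5. None of the 10 higher members had the Iroquois letters in this window. Among the 23 members with a RefSeq window, those letters were found in Dclre1c and Xrcc5 alone, against 8.39% of the 27025 genes with a window. The ETS letters were in 4 of the 23 members (Dclre1c, Lig4, Rad1 and Rnf168), against 4.31% of genes, the E2F letters in Clspn and Topbp1, against 0.929%, the NRF1 consensus in Lig4, against 1.07%, and CCAAT in 11, against 41.1%.

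Among the 8 genes of ATM and ATR signalling, 3 were higher (Etaa1, Topbp1 and Chek2), none was lower and 4 did not pass, with Chek1 not tested. The 3 were 42.9% of the 7 tested, against 26.9% of all rows tested. The entry of Etaa1 and Chek2 into the test depended on their level in Irx5KO, so no conclusion is drawn from this share. Etaa1, which binds RPA-coated DNA and activates ATR, showed the largest change of any member. It was at 0.988 and 1.04 FPKM in the WT mice and at 4.45 and 3.93 FPKM in the Irx5KO mice, in the order of the replicates. The 2 genotypes were far apart relative to the spread within each, at 1.012 ± 0.0344 and 4.19 ± 0.363 FPKM, a ratio of 4.14 (difference 1.37, SE 0.163, adjusted p = 6.02e-04). Etaa1 lies on chromosome 11 at 17938756 to 17953875 (mm10) with 1 transcript in the annotation used here. Topbp1, the other activator of ATR, was at 7.24 and 7.04 FPKM in the WT mice and 11.6 and 9.92 FPKM in the Irx5KO mice (difference 0.53, SE 0.169, adjusted p = 0.0394). Both Irx5KO libraries were above both WT libraries, but the call ended without WT replicate 2 (adjusted p = 0.0577), Irx5KO replicate 1 (0.351) or Irx5KO replicate 2 (0.134).

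The genes of the kinases themselves did not pass the test. Atm was at 1.81 and 2.03 FPKM in the WT mice and 3.48 and 2.62 FPKM in the Irx5KO mice, and Atr at 2.74 and 2.56 against 3.84 and 3.03 FPKM. Their differences were 0.47 and 0.28 (adjusted p = 0.0677 and 0.235), and the Irx5KO libraries were the higher ones for both genes. The difference of Atm was close to that of Chek2 (0.47), which passed, so Atm cannot be said to have changed less. Atrip, the partner that brings ATR to single-stranded DNA, had overlapping groups at 4.60 and 4.27 FPKM in the WT mice and 4.62 and 4.06 FPKM in the Irx5KO mice. Its exons share 16.04% of their bases with Trex1 on the same strand, so the values of these genes can share reads.

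Of the effector kinases, Chek2, the target of ATM, rose and Chek1, the target of ATR, was too low to test. Chek2 was at 0.881 and 0.832 FPKM in the WT mice and 1.67 and 1.49 FPKM in the Irx5KO mice (difference 0.47, SE 0.158, adjusted p = 0.0444). Leaving out any library ended this call, with adjusted p = 0.0576 and 0.0922 after dropping WT replicate 1 or 2, and 0.268 and 0.149 after dropping Irx5KO replicate 1 or 2. It also ended with a pseudocount of 0.1 (adjusted p = 0.0523). Chek1 was at 0.611 and 0.506 FPKM in the WT mice and 0.610 and 0.582 FPKM in the Irx5KO mice, so that its groups overlapped. Wee1, the kinase that holds Cdk1 inactive, was at 13.6 and 16.6 FPKM in the WT mice and 10.5 and 12.8 FPKM in the Irx5KO mice. It was the only tested member with both Irx5KO libraries below both WT libraries (difference -0.35, SE 0.184, adjusted p = 0.165), and it passed under the median of ratios alone (-0.63, adjusted p = 0.0469).

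The fork protection mediators showed no call, and 2 of the 3 were too low to test. Tipin, which pairs with Timeless at the fork, was at 14.1 and 11.99 FPKM in the WT mice and 15.7 and 12.2 FPKM in the Irx5KO mice, with overlapping groups (adjusted p = 0.753). Timeless was at 1.004 and 0.890 FPKM in the WT mice and 0.866 and 0.835 FPKM in the Irx5KO mice. Clspn, the adaptor through which ATR reaches Chk1, was at 0.183 and 0.262 FPKM in the WT mice and 0.319 and 0.4003 FPKM in the Irx5KO mice. With a lower filter, a mean of at least 0.1 FPKM, all 30 members were tested, 9 were higher and none lower, against 21.1% and 7.72% of all rows, the call of Topbp1 ended (adjusted p = 0.0545), and neither Chek1 (adjusted p = 0.827), Timeless (0.666) nor Clspn (0.256) passed.

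In the 9-1-1 clamp, the ring that is loaded at damaged sites and brings in Topbp1, 2 of the 3 subunits and the loader rose. These were 75% of the 4 genes, against 26.9% of all rows tested. The entry of Hus1 into the test depended on its level in Irx5KO, so no conclusion is drawn from this share. Rad1 was at 1.60 and 1.05 FPKM in the WT mice and 3.48 and 3.34 FPKM in the Irx5KO mice, a ratio of 2.58 (difference 0.94, SE 0.179, adjusted p = 0.00520). Hus1 was at 1.22 and 0.899 FPKM in the WT mice and 3.35 and 2.40 FPKM in the Irx5KO mice, a ratio of 2.72 (difference 0.91, SE 0.187, adjusted p = 0.00706). Both genes were higher in each Irx5KO library than in either WT library. Rad9a, the subunit whose tail binds Topbp1, was already at 11.99 and 7.67 FPKM in WT and was at 9.67 and 11.2 FPKM in Irx5KO, so that its groups overlapped (adjusted p = 0.723). Its exons share 9.53% of their bases with Ppp1ca on the other strand, and counting by strand is not stated. Rad17, which with replication factor C opens the ring onto DNA, was at 7.04 and 6.30 FPKM in the WT mice and 11.3 and 10.9 FPKM in the Irx5KO mice (difference 0.66, SE 0.166, adjusted p = 0.0153). The Rad17 call ended without Irx5KO replicate 1 (adjusted p = 0.131) or Irx5KO replicate 2 (0.0947), and without either of these libraries 2 of the 4 genes of this group passed. Rad1 lies on chromosome 15 at 10486018 to 10499063, Hus1 on chromosome 11 at 8993137 to 9011191 and Rad17 on chromosome 13 at 100617164 to 100651051 (mm10).

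In ubiquitin signalling on chromatin the genes of the 2 ligases rose and those of the proteins upstream and downstream of them did not pass. The ligases were 33.3% of the 6 genes, against 26.9% of all rows tested. Rnf8, which is recruited by Mdc1 and starts ubiquitin chains, was at 8.42 and 6.81 FPKM in the WT mice and 12.1 and 13.6 FPKM in the Irx5KO mice (difference 0.69, SE 0.178, adjusted p = 0.0175). Rnf168, which marks histone H2A for 53BP1, was at 3.78 and 4.18 FPKM in the WT mice and 7.52 and 7.08 FPKM in the Irx5KO mice, a ratio of 1.83 (difference 0.74, SE 0.166, adjusted p = 0.0101). Both genes had Irx5KO libraries above the WT libraries. The Rnf8 call ended without Irx5KO replicate 1 (adjusted p = 0.0635) or 2 (0.144) and the Rnf168 call without Irx5KO replicate 1 (0.0863), which left 0 of the 6 genes called without Irx5KO replicate 1 and 1 without Irx5KO replicate 2.

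H2afx, which encodes the histone H2AX phosphorylated by ATM, varied more within Irx5KO than between the genotypes. It was at 7.99 and 6.51 FPKM in the WT mice and 5.71 and 9.43 FPKM in the Irx5KO mice (adjusted p = 0.943). Mdc1, the adaptor that binds it, was at 5.17 and 4.48 FPKM in the WT mice and 7.36 and 5.63 FPKM in the Irx5KO mice (adjusted p = 0.159). The end-protection genes were close to this pattern, with Trp53bp1 at 7.52 and 6.83 against 10.1 and 8.32 FPKM and its effector Rif1 at 4.37 and 6.09 against 9.49 and 6.54 FPKM. The Irx5KO libraries were above the WT libraries for Mdc1, Trp53bp1 and Rif1, yet none passed (adjusted p = 0.183 for Trp53bp1 and 0.0888 for Rif1). Of the exon bases of Trp53bp1, 15.04% are shared with Tubgcp4 on the other strand.

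In end joining, 2 of 9 genes (22.2%) rose, Polm and Lig4, none was lower and 7 did not pass. This share was below the 26.9% of all rows tested that were higher, and the entry of Lig4 into the test depended on its level in Irx5KO. Lig4, the ligase that closes the break, was at 0.597 and 0.442 FPKM in the WT mice and 1.31 and 1.42 FPKM in the Irx5KO mice, a ratio of 2.63 (difference 0.64, SE 0.159, adjusted p = 0.0151). These values stand for about 156 and 128 fragments in WT and 341 and 357 fragments in Irx5KO. Both Irx5KO libraries had more than either WT library by a wide margin, but the call ended without WT replicate 2 (adjusted p = 0.0530) or Irx5KO replicate 2 (0.0759). Polm, a gap-filling polymerase of the same family as Poll, was at 6.03 and 4.50 FPKM in the WT mice and 9.67 and 9.51 FPKM in the Irx5KO mice (difference 0.77, SE 0.183, adjusted p = 0.0127). The Polm call ended without Irx5KO replicate 1 (adjusted p = 0.0631) or 2 (0.0509). Poll was at 2.56 and 1.36 FPKM in the WT mice and 3.09 and 2.42 FPKM in the Irx5KO mice, with overlapping groups, and passed without WT replicate 1 (adjusted p = 0.0277) but not with all 4 libraries (0.214). The number of the 9 genes that passed varied with the library left out, as did the number of all rows. Without WT replicate 1 or 2 the median difference of the 9 was 0.37 or 0.09, against 0.31 or 0.20 for all rows. Without Irx5KO replicate 1 or 2 it was 0.22 or 0.26, against 0.26 or 0.25 for all rows.

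The genes for the first steps of end joining did not pass. The Ku subunits Xrcc6 (Ku70) and Xrcc5 (Ku80), which form the ring that grips a broken end, were at 9.69 and 7.41 against 9.48 and 8.35 FPKM and at 8.57 and 7.798 against 9.96 and 9.43 FPKM (adjusted p = 0.815 and 0.319). Prkdc, the kinase that Ku recruits, was at 1.16 and 1.35 FPKM in the WT mice and 1.70 and 1.33 FPKM in the Irx5KO mice. Dclre1c, the Artemis nuclease, was at 6.58 and 5.07 FPKM in the WT mice and 6.94 and 7.21 FPKM in the Irx5KO mice. Neither of these passed (adjusted p = 0.475 and 0.297), and the Irx5KO libraries of Prkdc overlapped those of WT. The scaffold genes Xrcc4 (6.43 and 4.78 against 6.29 and 6.64 FPKM) and Nhej1 (5.07 and 3.22 against 2.96 and 4.34 FPKM) also overlapped. The direction of Prkdc, Xrcc4, Xrcc5, Xrcc6 and Dclre1c turned under the median of ratios and under quantile normalization, so none is given for them.

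Ratios between partner genes within a library do not move with the scaling of that library, and 16 pairs of products that act together were compared without a test. The genotypes did not overlap for 9 of the 16, which is not more than among all pairs of rows tested that were above 0 in every library, of which 69.1% did not overlap. The ratio of Xrcc4 to its ligase partner Lig4 was 10.8 in each WT library and 4.80 and 4.68 in Irx5KO. The ratio of Rad9a to Hus1 was 9.86 and 8.53 in WT and 2.88 and 4.68 in Irx5KO, so that the WT libraries were the higher ones. Rad1 to Hus1 stayed between 1.04 and 1.39 in all 4 libraries. Etaa1 to Topbp1, the ATR activators, went from 0.136 and 0.147 to 0.385 and 0.396, and Atr to Atrip from 0.596 and 0.598 to 0.831 and 0.747. Chek1 to Chek2 was lower in Irx5KO, at 0.365 and 0.391 against 0.694 and 0.608. The ratios of Xrcc5 to Xrcc6, Prkdc to Xrcc6, Poll to Polm, Rnf8 to Rnf168, Trp53bp1 to Rif1 and Mdc1 to H2afx overlapped between the genotypes.

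**Figure D4:**
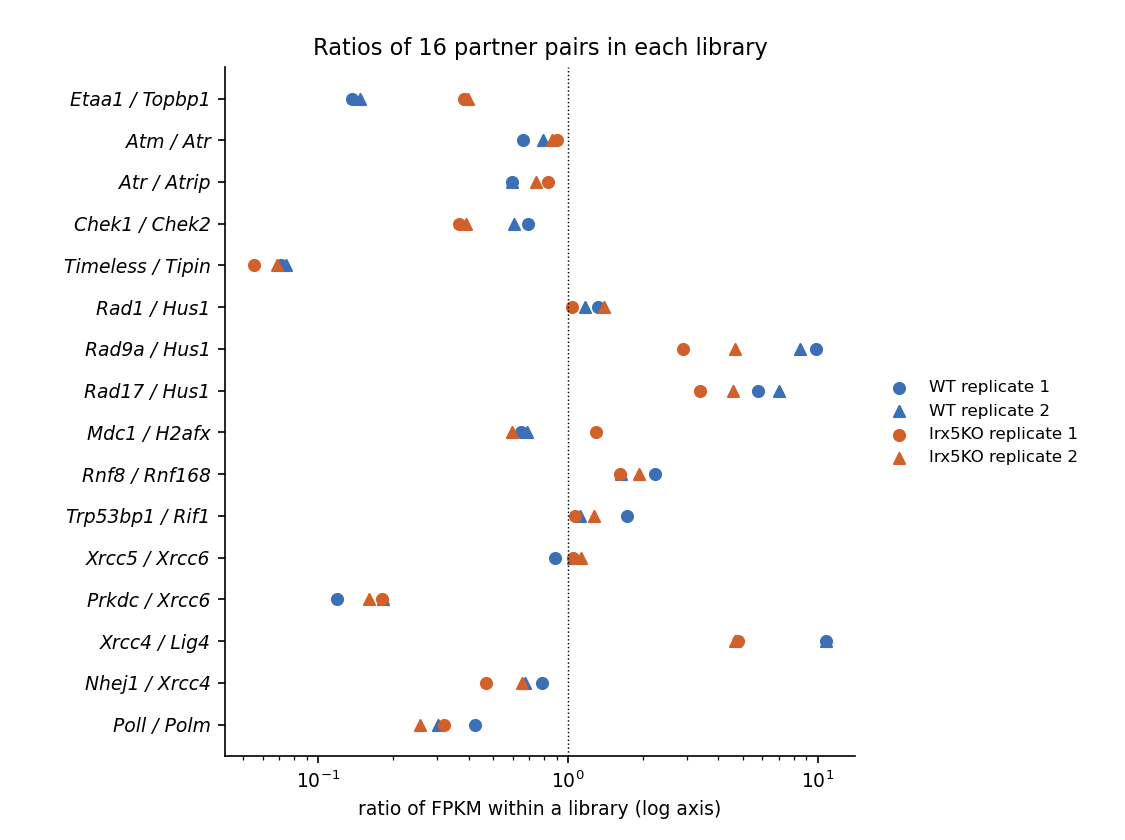
Ratio of the FPKM of partner genes within each library, on a log axis, for 16 pairs, with WT in blue, Irx5KO in orange, circles for replicate 1 and triangles for replicate 2. The libraries of each genotype lie close together and apart from the other for Xrcc4 to Lig4 (10.8 against 4.68 and 4.80) and Etaa1 to Topbp1, and are mixed for Rad1 to Hus1.

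Other genes of the same pathways were higher in shares of 32.1%, 13.0% and 29.4% of those tested in 3 lists, against 26.9% of all rows. Of 28 tested partners and effectors of the checkpoint 9 (32.1%) were higher, none was lower and 19 did not pass, with a median of 0.38. Atmin, a cofactor of ATM, went from 3.003 and 2.72 FPKM in WT to 6.36 and 6.64 FPKM in Irx5KO (difference 0.96, adjusted p = 0.00321). Rad50, of the complex that activates ATM at breaks, went from 4.13 ± 0.532 to 8.78 ± 0.138 FPKM, while its partners Mre11a (4.17 and 4.14 against 5.85 and 6.06 FPKM, adjusted p = 0.0655) and Nbn (14.7 and 17.7 against 16.5 and 16.9 FPKM, adjusted p = 0.847), chosen after their values were seen, did not pass. Rfc3, a replication factor C subunit that works with Rad17 in loading the clamp, went from 8.64 ± 0.550 to 17.0 ± 1.08 FPKM (adjusted p = 0.00434). The other subunits Rfc2 (difference -0.03, adjusted p = 0.916, overlapping groups), Rfc4 (0.32, 0.219) and Rfc5 (0.29, 0.235) did not pass. Cdc25a, the phosphatase that Chk1 marks for destruction, went from 3.27 ± 0.765 to 6.89 ± 0.393 FPKM (adjusted p = 0.00733).

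Of 23 tested partners in ubiquitin signalling 3 (13.0%) were higher and none lower, with a median of 0.35. They were Usp1 (6.96 ± 0.123 to 13.4 ± 0.211 FPKM, adjusted p = 0.00507), Fam175a, the scaffold of the BRCA1-A complex (2.24 ± 0.743 to 5.42 ± 0.794 FPKM, adjusted p = 0.00692), and Pagr1a (8.64 ± 3.07 to 15.4 ± 0.993 FPKM, adjusted p = 0.0242). The other BRCA1-A genes Bre and Babam1 had overlapping groups (differences -0.019 and 0.025, adjusted p = 0.943 and 0.936), and Brcc3 and Uimc1 did not pass (0.35 and 0.34, adjusted p = 0.118 and 0.128). Of 17 other tested end-joining genes 5 (29.4%) were higher and none lower, with a median of 0.38. Aplf, which tethers Ku and Xrcc4 to the break, led them at 2.65 and 2.50 FPKM in the WT mice and 6.30 and 6.89 FPKM in the Irx5KO mice (difference 1.09, SE 0.165, adjusted p = 0.00188). The others named by the smallest p were Setmar, Dclre1a and Tdp2, with differences of 0.84, 0.58 and 0.58.

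Genes of mitosis were also higher, whereas those of DNA replication were split. Of 16 tested genes of G2/M and mitosis 14 (87.5%) were higher and none was lower, against 26.9% and 9.22% of all rows tested. Some of them, such as Hmmr (0.255 and 0.455 FPKM) and Ccnb1 (0.952 and 0.961 FPKM), were below 1 FPKM in both WT libraries. Such genes entered the test through the Irx5KO libraries alone. All 20 genes of the list, tested or not, summed to 24.8 and 28.4 FPKM in the WT mice and 47.0 and 66.7 FPKM in the Irx5KO mice. Ccna2 went from 1.48 ± 0.0833 to 4.29 ± 1.43 FPKM. In DNA replication 2 of 17 were higher (Mcm7 the first of them, at 8.76 ± 1.40 and 21.5 ± 0.373 FPKM) and 2 lower (Pcna from 137 ± 15.5 to 67.1 ± 10.1 FPKM and Cdt1 from 6.19 ± 0.480 to 2.9996 ± 0.159 FPKM). The part of the mitotic genes' difference in that of the checkpoint genes was not tested.

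For 8 members a protein-coding gene starts on the opposite strand within 1000 bases upstream, or overlaps the start by up to 500 bases. Rad1 and its neighbour Brix1 start 71 bases apart and differed in direction, with Brix1 at 22.6 and 29.3 FPKM in the WT mice and 18.5 and 17.9 FPKM in the Irx5KO mice (difference -0.48, adjusted p = 0.0671), so that the call of Rad1 was not shared by Brix1. Lig4 and Abhd13 start 21 bases apart and both were higher, with Abhd13 at 5.89 and 7.21 FPKM in the WT mice and 9.93 and 9.84 FPKM in the Irx5KO mice (difference 0.53, adjusted p = 0.0402). Of the others tested, Npat beside Atm, Hscb beside Chek2, Taf9 beside Rad17 and Mcm4 beside Prkdc did not pass, and Tmem167, which overlaps the start of Xrcc4, rose (difference 0.60, adjusted p = 0.0230). None of the 10 higher members shares exon bases with another gene of the table.

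The members also differed between replicates in a way that moved with transcript length. In Irx5KO, 21 of the 30 members were higher in replicate 1 than in replicate 2, and in WT 23 were higher in replicate 1. These counts take members of every length together, and the share of all rows was not counted. Across 10932 rows tested with a known transcript, Spearman's rho between length and the difference of replicate 1 minus 2 was 0.42 in Irx5KO and -0.42 in WT, and it was 0.17 for the difference of Irx5KO minus WT. Over the 27 tested members, which come from the same libraries, the values were 0.51, -0.55 and 0.36. The median difference of Irx5KO minus WT was 0.10 in the shortest of 4 equal bins of transcript length and 0.33 in the longest. From the shortest bin to the longest, 0 of 4, 3 of 7, 3 of 5 and 4 of 11 members were called higher, against 16.5%, 28.2%, 32.0% and 30.4% of all rows. GC content of the transcripts moved the other way, with a rho of -0.10 to the genotype difference over all rows and -0.30 over the members. These correlations run across genes, which are not independent, and the part of length or GC content in the calls was not tested.

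**Figure D5:**
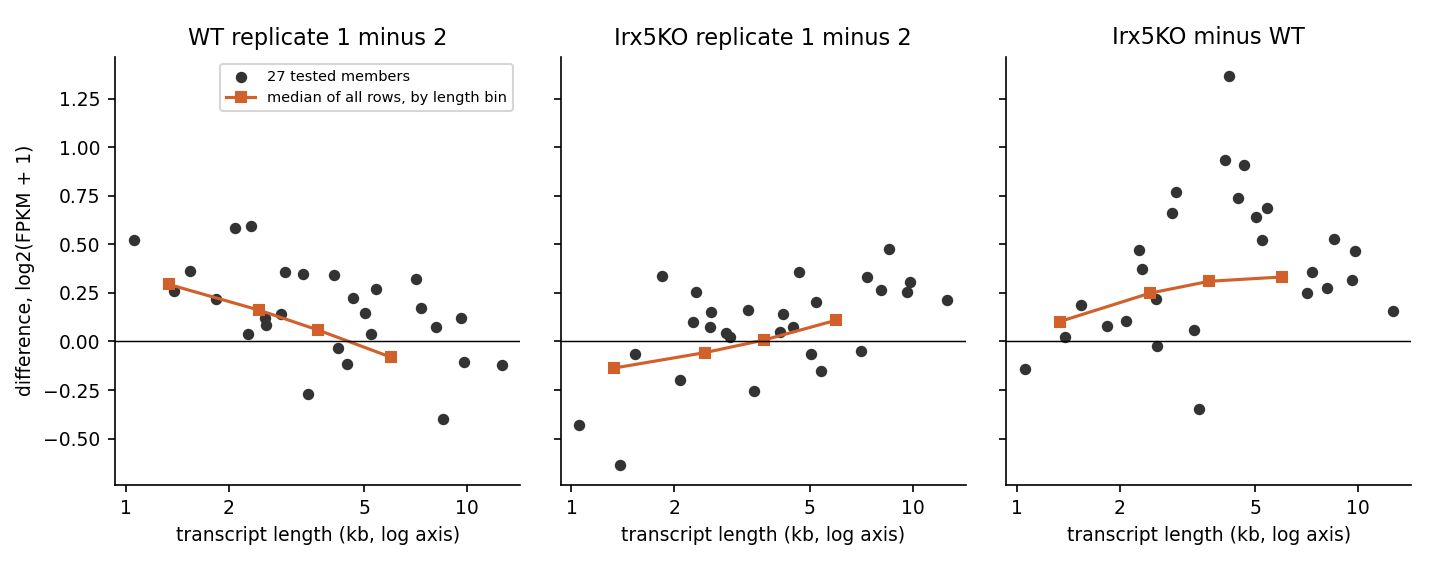
Difference on the log2(FPKM + 1) scale against transcript length in kb (log axis) for the 27 tested members (points) and the median of all rows in each of 4 bins of length (orange squares), for WT replicate 1 minus 2, Irx5KO replicate 1 minus 2 and Irx5KO minus WT. The medians fall with length in WT, rise with length in Irx5KO and, between the genotypes, go from 0.10 to 0.33.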

How the data were processed

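The authors deposited FPKM values of the 4 libraries, which were used unchanged and with no count model. The submitters' processing notes list Bowtie2, DESeq2 and mm10. How FPKM were made, and with which annotation, is not given in the sources used here. Depth was estimated from low values of 3555 genes with 1 transcript of over 600 bases, assuming fragments of 200 bases: 67.6% to 69.9% of values up to 10 fragments were whole within 0.1, against 20.0% by chance. Fragments per member assume the longest coding transcript and cover counting error only. Rows with at least 1 FPKM in at least 2 libraries were fitted together with limma 3.58.1 in R 4.3.3 on log2(FPKM + 1), with an intensity trend. Tests were 2-sided, p-values were adjusted by Benjamini and Hochberg's method across the 11643 rows, and 0.05 was the threshold. Differences on this scale understate changes of low genes. With 2 libraries a group, exact permutation reaches no p below 0.333. The script was tested on simulated data. GENCODE M21 gave positions and lengths. There were 15 alternatives, of which the filter at a mean of 0.1 FPKM was chosen after seeing the data. The members, gene lists and tests were chosen with earlier results of these data known. The genes named were all members, up to 4 called genes of smallest p in each pathway list, up to 3 of smallest p in each context list, the most abundant marker of each cell type, Irx5 and the sex-linked genes. Outside this rule, partners of Rad50, Rfc3 and Fam175a in their complexes, genes starting beside members and genes sharing exons with them are named, chosen after values were seen.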

Additional observations from a re-analysis of the deposited data

How the results depend on the processing

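Calls were fewest with no filter on low values, and fell to 4 members under the median of ratios, under quantile normalization and without either Irx5KO library; the cause was not tested. Over all rows the number higher in Irx5KO was 28 with no filter, 1898 at a mean of at least 5 FPKM, 1226 under the median of ratios, 5577 as TPM, 1516 under quantile normalization and 4796 without the 100 most abundant rows, and the number lower was 18 with no filter and 1613 under the median of ratios. Without 1 library, 1457 to 4048 rows were higher and 725 to 1275 lower. With no filter 0 members were higher, in every group. At a mean of at least 5 FPKM, where 16 members were tested, 5 were higher, with 1 in ATM and ATR signalling, 1 in the 9-1-1 group and 1 in end joining. Under the median of ratios 4 members were higher and 1, in ATM and ATR signalling, was lower, and under quantile normalization 4 were higher; under each, 1 was in ATM and ATR signalling, 0 in chromatin ubiquitin signalling and 1 in end joining. As TPM, 5 were in chromatin ubiquitin signalling. Without 1 library, 4 to 10 members were higher, with 1 to 2 in ATM and ATR signalling, 2 to 3 in the 9-1-1 group, 0 to 2 in chromatin ubiquitin signalling and 0 to 3 in end joining.

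The differences of 11 members that were not called turned in sign under rescaling, and 6 of them also without 1 library. Under the median of ratios and quantile normalization they were -0.20 and -0.13 for Tipin, -0.17 and -0.15 for Rad9a, -0.24 and -0.27 for H2afx, -0.019 and -0.068 for Prkdc, -0.054 and -0.050 for Xrcc5, -0.21 and -0.21 for Xrcc6, -0.012 and -0.052 for Dclre1c and -0.073 and -0.11 for Xrcc4. Atr was at -0.012 under quantile normalization, Atrip at 0.19 as TPM and 0.10 without the 100 most abundant rows, and Nhej1 at 0.063 as TPM. Without 1 library, Atrip ranged from -0.10 to 0.049, Tipin from -0.088 to 0.25, Rad9a from -0.19 to 0.40, H2afx from -0.29 to 0.34, Xrcc6 from -0.11 to 0.23 and Nhej1 from -0.40 to 0.12.

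The labels give both genotypes replicates 1 and 2 without saying that a number marks a shared litter or day, and deviations of same-numbered libraries from their group means had a correlation of -0.07 across rows. With the replicate number as a block, 3301 rows and 12 members were higher and 1166 rows and 0 members lower, with Atm (adjusted p = 0.0455) and Rif1 (0.0436) added. Where a genotype was left with 1 library, that library was assumed to vary like the other group. Chek1, Clspn and Timeless were left out by the filter on FPKM, and 2 libraries a genotype limit every call.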
